A study of Mus musculus with 2 samples.

Results

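The Ly6 family described here is a set of 7 genes, Ly6a, Ly6c1, Ly6c2, Ly6d, Ly6e, Ly6g and Ly6i, of the 32285 genes in the deposited count matrices. They were chosen by the transcript counts of Ly6c2 and Ly6i in macrophages, which earlier results had placed furthest above control in the knockout tumours. Those counts picked the family, and the values in that class are given as a description. Ly6 proteins are small, cysteine-rich proteins, most of them held on the cell surface by a glycosylphosphatidylinositol (GPI) anchor. Immunologists use several of them as labels of leukocytes: Ly6C marks inflammatory monocytes, Ly6G marks neutrophils and Ly6A, also called Sca-1, marks stem and progenitor cells as well as activated lymphocytes. Several members, among them Ly6a, Ly6c2 and Ly6e, are known to be induced by interferons.

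The cells came from orthotopic tumours of KPC cells, a mouse pancreatic cancer line, taken at day 21 after implantation. Control mice were littermates with the genotype Porcnfl/fl, and knockout mice were Csf1r-Cre;Porcnfl/fl, so both groups carried the floxed Porcn allele and only the knockout mice carried Cre. Porcn encodes the enzyme that makes Wnt proteins fit for secretion. Cre was driven by the Csf1r promoter, which is active in monocytes, macrophages and other myeloid cells, so deletion need not be confined to macrophages. The tumours of 5 mice were pooled for each genotype, and each pool gave 1 library. With 1 library per group no test between genotypes was possible, no p-value is given, and every difference lies between 2 libraries. Parentheses hold exact 95% intervals, which cover counting error only.

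After filtering, 11516 control cells and 10467 knockout cells were kept, with median depths of 12167.5 and 10109 unique molecular identifiers (UMIs) per cell. Both libraries held 46 of the same barcodes, of which 39 control and 43 knockout cells were kept. Levels are UMIs per 1000000 UMIs of a cell class in a library (CPM), and class names end in "-like" because they were rebuilt from marker genes. In monocyte/macrophage-like cells Porcn was counted 8 times in the control and 4 times in the knockout library, too few to check the genotype. Csf1r, the gene whose promoter drove Cre, stood at 236 CPM in control and 270 CPM in knockout cells of that class.

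The 7 genes lie within 397 kb of chromosome 15 (GRCm38, GENCODE M21). In order they are Ly6d (74762056 to 74763620, minus strand), Ly6e (74955051 to 74959905, plus strand), Ly6i (74979534 to 74983430, minus strand), Ly6a (74994877 to 74998031, minus strand), Ly6c1 (75044018 to 75048830, minus strand), Ly6c2 (75108158 to 75111970, minus strand) and Ly6g (75155240 to 75159126, plus strand). No other annotated gene overlaps any of them. Since the 10x Genomics kit used counts transcripts by their 3′ ends, the last 400 bases of the members' longest coding transcripts were compared. Ly6c1 and Ly6c2 were the closest pair, identical in 94.8% of aligned columns, and 35 of the 311 windows of 90 bases in each were also found in the other. No such window of the other members occurred in another gene's transcripts. Ly6a, Ly6c1, Ly6c2, Ly6g and Ly6i were 78.3% to 94.8% identical to one another, while Ly6d and Ly6e were close to neither each other nor the rest, at 49.4% to 51.3%. How reads from the shared stretch of Ly6c1 and Ly6c2 were assigned is not given in the sources used here, so a small part of either gene's count is uncertain.

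The upstream sequences of Ly6c1 and Ly6c2 are shown because these near-identical genes were detected in different cells. They are the 250 bases before the transcription start (RefSeq, GRCm38.p6, both on the minus strand), read 5′ to 3′, with capitals where the 2 sequences differ or where a base has no partner in the alignment. Ly6c1 is at chr15:75048838-75049087 and Ly6c2 at chr15:75111972-75112221.
Ly6c1: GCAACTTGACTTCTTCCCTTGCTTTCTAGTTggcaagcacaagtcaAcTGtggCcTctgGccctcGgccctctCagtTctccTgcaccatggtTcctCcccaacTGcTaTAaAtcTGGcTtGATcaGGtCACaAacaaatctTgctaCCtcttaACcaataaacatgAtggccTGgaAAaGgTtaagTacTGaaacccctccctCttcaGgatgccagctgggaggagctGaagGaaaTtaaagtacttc
Ly6c2: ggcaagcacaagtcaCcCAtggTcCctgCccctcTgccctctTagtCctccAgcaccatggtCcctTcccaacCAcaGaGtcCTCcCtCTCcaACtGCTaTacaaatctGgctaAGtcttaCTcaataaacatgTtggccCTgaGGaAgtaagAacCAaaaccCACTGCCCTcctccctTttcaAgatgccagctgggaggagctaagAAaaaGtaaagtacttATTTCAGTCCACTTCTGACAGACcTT
Of 285 alignment columns, 168 held the same base, 47 held different bases and 70 had a base in only 1 of the 2 stretches. These 70 include the unpaired runs at the start of the Ly6c1 stretch and near the end of the Ly6c2 stretch. They are thus not a count of insertions or deletions. Of the columns with both bases, 78.1% were identical. The 3′ ends of the transcripts were thus more alike than these upstream stretches. Their 94.8% counted columns with a gap as well, while the 78.1% left these out. In the 300 bases from 250 before to 50 after the start, neither gene nor Ly6g held the core of the interferon-stimulated response element (GAAA, any 2 bases, GAAA) or that of the gamma-activated site (TTCNNNGAA) on either strand. Among 32851 RefSeq promoters of that length, 3.44% held the first and 8.30% the second. All 7 members were looked up in the RefSeq promoter table by symbol, and 3 matched, Ly6c1, Ly6c2 and Ly6g. No promoter of Ly6a, Ly6d, Ly6e or Ly6i was used here.

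**Figure D1:**
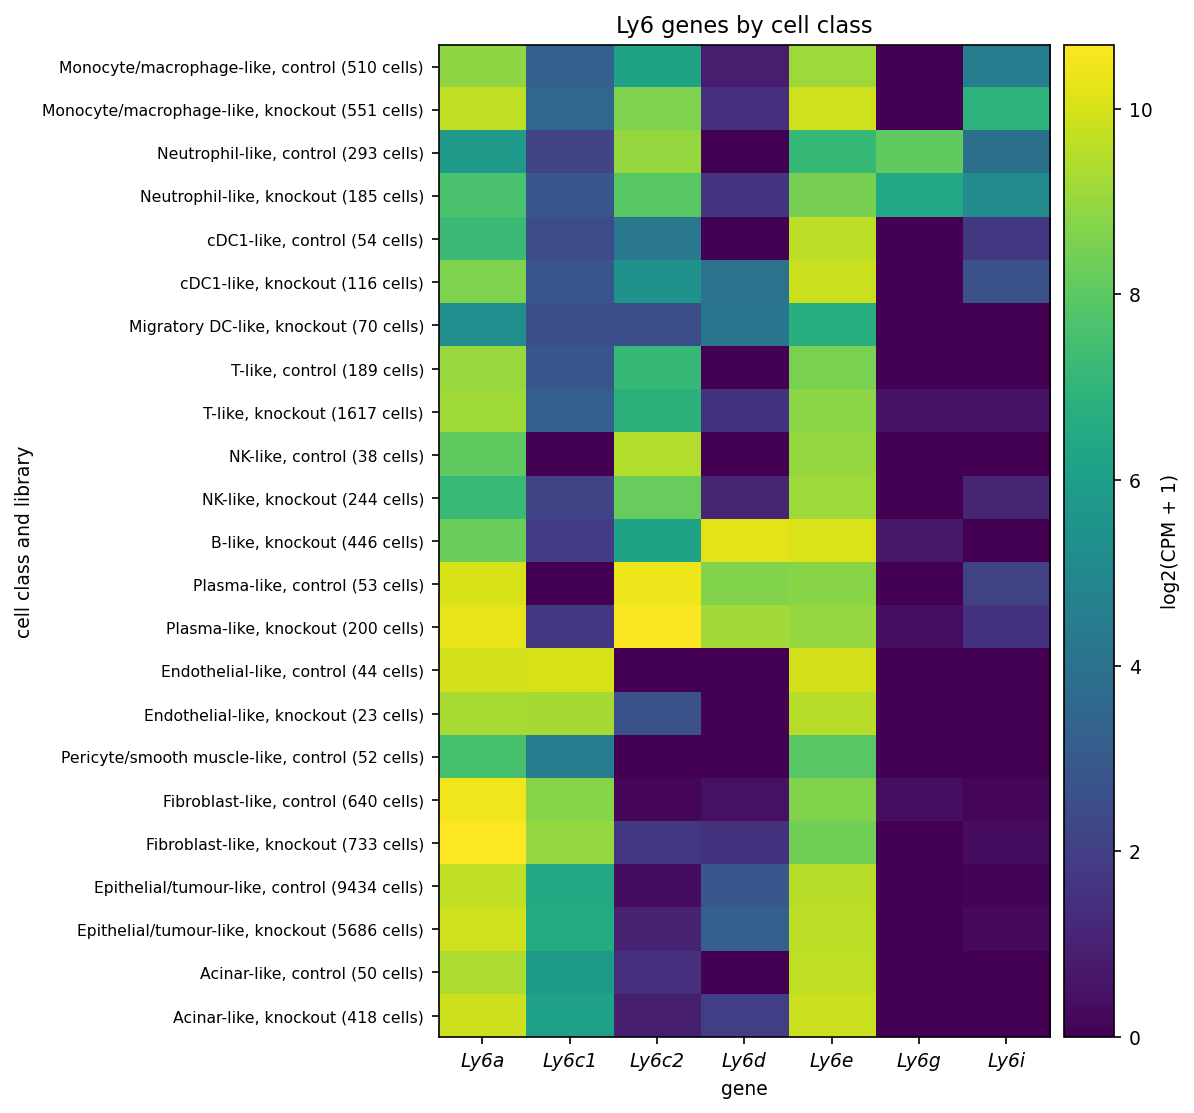
Levels of the 7 genes as log2(CPM + 1), one row per cell class and library with at least 20 cells. Ly6a and Ly6e are bright in almost every row, Ly6g is bright only in the neutrophil-like rows, and Ly6c1 and Ly6c2 are bright in different rows.

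The members differed widely in where they were found. Ly6a and Ly6e were the abundant pair, with 138498 and 120783 UMIs in all kept control cells and 124163 and 95558 in knockout cells. Ly6c1 had 17713 and 13497 UMIs, Ly6c2 1924 and 8117, and Ly6d 1330 and 4652. Ly6g and Ly6i were sparse, with 255 and 88 UMIs in control cells and 47 and 438 in knockout cells. Over whole libraries Ly6c2 therefore stood at 11.4 CPM in control and 62.8 CPM in knockout cells, a difference that includes the larger numbers of lymphoid and plasma-like cells in the knockout library.

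Ly6c2 and Ly6i were both much higher in the knockout than in the control monocyte/macrophage-like cells, the contrast by which they were chosen. Ly6c2, the Ly6C antigen gene of inflammatory monocytes, was counted 174 times in 510 cells of the control library and 1104 times in 551 cells of the knockout library. Its level was 71.0 CPM (60.9 to 82.4) against 392 CPM (369 to 416) in the knockout library, a log2 ratio of 2.46 (2.23 to 2.70). Ly6i, a close relative of Ly6c2 found here mainly in myeloid cells, had 56 and 339 UMIs, or 22.9 CPM (17.3 to 29.7) and 120 CPM (108 to 134), a log2 ratio of 2.38 (1.99 to 2.83). They ranked as numbers 28 and 31 from the top of 10263 genes with at least 20 UMIs in the class. Of the 5 members with that many UMIs, 2 were at least 2-fold higher in knockout, where 2.72% of all genes were. These were Ly6c2 and Ly6i, by which the family was picked. The count and the ranks therefore follow from that choice and say nothing more about the family. None of the 5 was 2-fold lower, where 3.6% of all genes were. Among genes with at least 100 UMIs, 1.43% were higher and 0.992% lower.

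**Figure D2:**
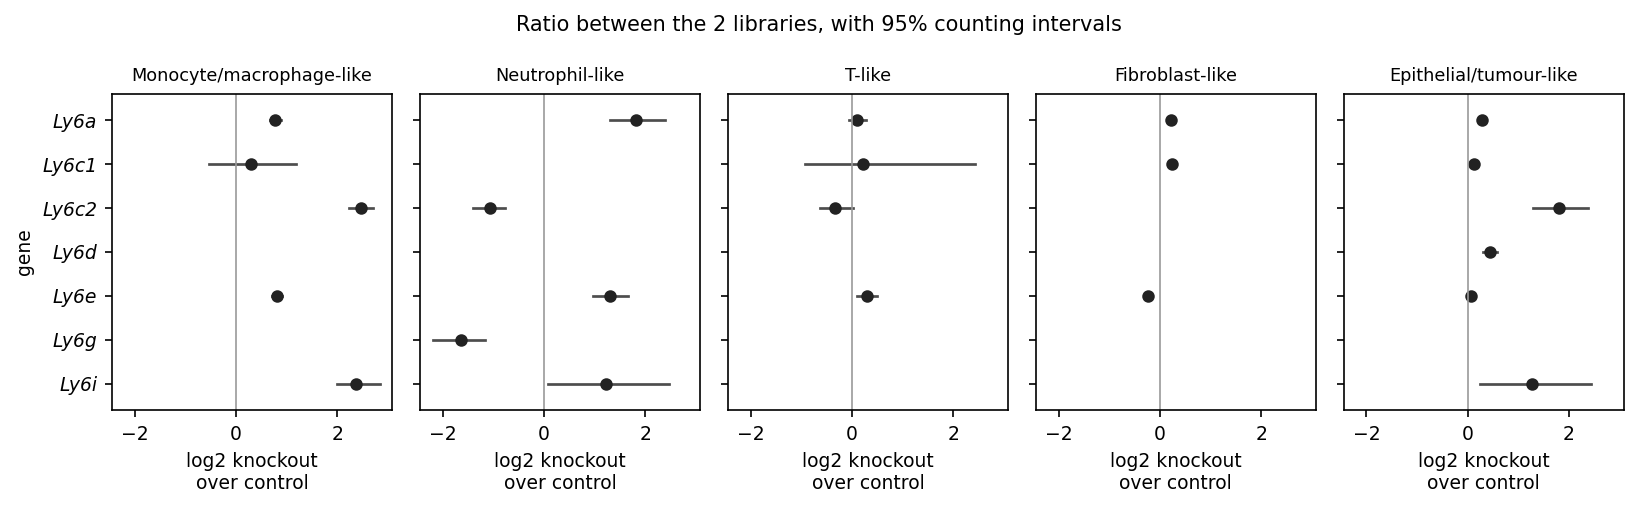
Log2 of knockout over control CPM for members with at least 20 UMIs, in the 5 cell classes that held 100 or more cells in both libraries. Points are ratios and lines are 95% counting intervals, and Ly6c2 lies at 2.46 in monocyte/macrophage-like and at -1.08 in neutrophil-like cells.

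More cells carried these transcripts in the knockout library. Ly6c2 had a UMI in 44 of 510 control cells (8.63%) and 148 of 551 knockout cells (26.9%), and 5 or more UMIs in 9 and 74 cells. Ly6i had a UMI in 23 control cells (4.51%) and 111 knockout cells (20.1%). Median depth was 2879 and 4038 UMIs, so cells were also thinned to 1000 UMIs each, leaving out 14 control and 11 knockout cells. The shares were then 4.84% and 17.4% for Ly6c2 and 1.21% and 9.44% for Ly6i. In fibroblast-like cells, which should lack Ly6c2, the unthinned share was 0.156% in control and 1.36% in knockout at median depths of 12815 and 9093 UMIs. The shares in monocyte/macrophage-like cells of both libraries were above these.

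Most Ly6c2 came from a subcluster with monocyte markers. The class held 4 subclusters, formed without the Ly6 genes. The one with Ms4a4c and Ms4a6d among its leading genes had 59.1% of its combined monocyte and macrophage marker UMIs from monocyte genes. That share was 45.0% in cells with Arg1, Pid1 and Tgfbi, which made up 32.4% of the class in control and 21.4% in knockout. It was 26.7% and 5.69% in the other subclusters. Ly6c2 was itself among the 10 leading genes of the Ms4a4c subcluster, and so was Arg1, a gene of the macrophage list. This subcluster held 36 control cells (7.06% of the class) and 152 knockout cells (27.6%). With them came 130 of 174 control and 1004 of 1104 knockout Ly6c2 UMIs. The larger share of this subcluster thus moved with the class level of Ly6c2. Within it, Ly6c2 stood at 926 CPM in control and 1530 CPM in knockout, a log2 ratio of 0.71 (0.46 to 0.999). Ly6i stood at 64.1 and 314 CPM there, a log2 ratio of 2.15 (1.34 to 3.44), though from 9 control UMIs.

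The 3 other subclusters carried far less Ly6c2. Cells with C1q genes, Apoe and Ccl8, which mark mature tissue macrophages, had 8.68 CPM in control and 42.4 CPM in knockout, from 6 and 43 UMIs. Cells with Chil3, Arg1 and Mmp12 had 11.6 and 44.3 CPM, from 15 and 40 UMIs. Shallow cells with Arg1, Pid1 and Tgfbi had 69.8 and 70.2 CPM, a log2 ratio of 0.03 (-0.99 to 0.98), so here the libraries could not be told apart. Ly6i was higher in knockout in the first pair of these, at 37.6 and 89.7 CPM in the C1q cells and 10.1 and 32.1 CPM in the Mmp12 cells. In the shallow cells its log2 ratio was 1.08 (-0.23 to 2.62).

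With the 4 subclusters weighted alike in both libraries, the log2 ratio of Ly6c2 was 0.81, from 150 to 262 CPM, and that of Ly6i was 1.73, from 28.3 to 93.9 CPM. Without the monocyte-marker subcluster the ratios were 1.26 and 1.58. Ly6c2 thus dropped more than Ly6i under both. Summed marker lists differed little between the libraries: the 12 monocyte markers summed to 5230 CPM in control and 5686 CPM in knockout, and the 12 macrophage markers to 19362 and 19069 CPM. Of the monocyte genes 4 were at least 2-fold higher and 2 lower in knockout. The 3 most abundant were Chil3 at 1817 and 2121 CPM, Fn1 at 1370 and 507 CPM, and Plac8 at 424 and 1216 CPM. Of the macrophage genes none was 2-fold higher and 2 were lower, Spp1 at 3713 and 1622 CPM and Arg1 at 3629 and 1687 CPM, while the lipoprotein gene Apoe was at 3980 and 6720 CPM.

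**Figure D3:**
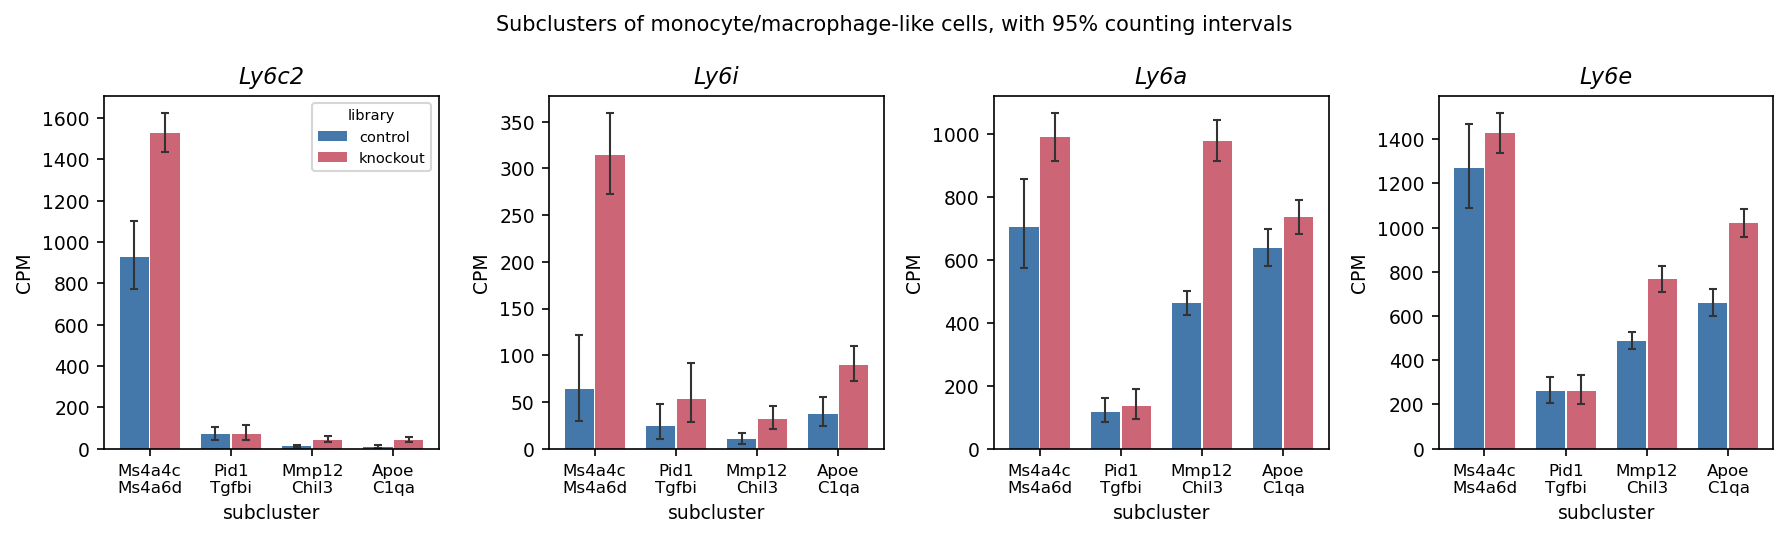
CPM of Ly6c2, Ly6i, Ly6a and Ly6e in the 4 monocyte/macrophage-like subclusters, named by 2 of their leading genes, with bars for each library and 95% counting intervals. Ly6c2 is concentrated in the Ms4a4c Ms4a6d subcluster, at 926 CPM in control and 1530 CPM in knockout. The Ly6a difference is largest in the Mmp12 Chil3 subcluster.

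Ly6a and Ly6e were higher in the same class by smaller amounts. Ly6a stood at 480 CPM in control (453 to 508) and 822 CPM in knockout (789 to 856), a log2 ratio of 0.78 (0.67 to 0.88). Ly6e, an interferon-induced gene whose product limits entry of some viruses, stood at 551 CPM (522 to 582) and 968 CPM (932 to 1005), a log2 ratio of 0.81 (0.72 to 0.91). Unlike Ly6c2, both were found across the class, in 44.3% and 61.0% of control cells and 59.0% and 76.2% of knockout cells. Ly6a stood at 705 and 990 CPM in the monocyte-marker cells and at 463 and 980 CPM in the Mmp12 cells. It stood at 638 and 736 CPM in the C1q cells and at 118 and 136 CPM in the shallow cells. Ly6e was at 1268 and 1426 CPM in the monocyte-marker cells and at 489 and 767 CPM in the Mmp12 cells. It was at 661 and 1020 CPM in the C1q cells and at 261 and 260 CPM in the shallow cells. At the tumour ratio of Ly6a to keratin UMIs, the keratin UMIs in this class accounted for 11.5% of Ly6a in control and 3.87% in knockout.

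The other 3 members were rare in monocyte/macrophage-like cells. Ly6c1 had 21 and 30 UMIs, a log2 ratio of 0.29 (-0.54 to 1.19), and keratin UMIs would account for 69.1% of its control level. Ly6d had 2 and 5 UMIs. Ly6g had 0 UMIs in either library, which allows up to 1.22 CPM in control and 1.07 CPM in knockout, taking 3 counts as the limit.

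Members were also seen together in single cells. After thinning, 23 of 540 knockout cells (4.26%) held UMIs of both Ly6c2 and Ly6i, where the product of the single shares was 1.64%. Ly6c2 and Ly6e were found together in 61 cells (11.3%), against a product of 8.35%. These shares describe cells of 1 library that also differ in subcluster.

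Genes of the interferon pathways are given beside the members. Of 18 measured genes of a type I interferon list, 14 were at least 2-fold higher in knockout monocyte/macrophage-like cells and none was 2-fold lower, with a median log2 ratio of 1.41 against -0.03 over all genes. The most abundant were Ifi27l2a at 675 and 1854 CPM, the antiviral tether Bst2 at 423 and 807 CPM, and the ubiquitin-like Isg15 at 280 and 747 CPM. Of 20 genes of an interferon gamma list, 2 were 2-fold higher and none lower, with a median of 0.41. These were the chemokines Cxcl9, at 318 and 1004 CPM, and Cxcl10, at 162 and 546 CPM. The other abundant genes of the list were the immunoproteasome gene Psmb8, at 435 and 646 CPM, and Cd274, which encodes PD-L1, at 375 and 455 CPM. Among 6 measured interferon ligand, receptor and Tnf genes only Ifnb1 was 2-fold higher, with 3 and 39 UMIs, while the most abundant receptor gene, Ifnar2, was at 231 and 280 CPM. Cxcl10 and Ifnb1 were picked for naming after their values were seen. None of 6 genes that build or attach GPI anchors was 2-fold different, among them Pigk at 29.0 and 43.3 CPM and Pigt at 23.7 and 23.4 CPM.

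Neutrophil-like cells showed a different pattern: Ly6a and Ly6e were higher in knockout, and Ly6g and Ly6c2 were lower. Ly6g, the surface marker by which mouse neutrophils are sorted, was counted 222 times in 293 control and 39 times in 185 knockout cells. Its level was 269 CPM (235 to 307) and 84.4 CPM (60.0 to 115), a log2 ratio of -1.64 (-2.20 to -1.18). Ly6c2 stood at 505 CPM (458 to 556) and 238 CPM (196 to 287), a log2 ratio of -1.08 (-1.40 to -0.78). Ly6a stood at 54.5 CPM (39.8 to 72.9) and 195 CPM (157 to 240), a log2 ratio of 1.82 (1.31 to 2.39). Ly6e stood at 143 CPM (118 to 171) and 355 CPM (303 to 414), a log2 ratio of 1.31 (0.96 to 1.67). Ly6i had only 12 and 16 UMIs, a log2 ratio of 1.22 (0.08 to 2.46).

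Of the 5 members with at least 20 UMIs in neutrophil-like cells, 3 were at least 2-fold higher in knockout, where 7.42% of 5785 genes were, and 2 were 2-fold lower, where 7.29% were. Among genes with at least 100 UMIs in this class, 8.3% were higher and 4.18% lower. These cells were shallow, with median depths of 1709 and 1874 UMIs. Thinned to 1000 UMIs, 8.60% of control and 2.19% of knockout cells held Ly6g, and 5.02% and 13.7% held Ly6a. For Ly6c2 the thinned shares were 14.0% (10.1 to 18.6) and 10.9% (6.81 to 16.4), which overlap. Its log2 ratio over thinned cells was -0.064, so the 2-fold difference in Ly6c2 was not seen there. Thinning also gave each cell the same weight, and the subcluster with Camp, described below, was deeper, at a median of 5578 UMIs. Whether depth or weight moved the ratio was not tested. Keratin UMIs at the tumour ratio would account for 59.8% of the control Ly6a level and 18.1% of the knockout level. The keratins themselves stood at 239 and 219 CPM. The 12 macrophage markers summed to 362 CPM in control and 1039 CPM in knockout, and the 10 neutrophil markers to 161312 and 82143 CPM. The part of these differences in the Ly6 values was not tested. When each cell was named from its own markers instead, Ly6a stood at 179 CPM in control and 156 CPM in knockout, a log2 ratio of -0.19, and the ratio of Ly6e was 0.08.

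Ly6g and Ly6c2 followed 1 neutrophil subcluster. The cells with Camp, Ngp and Ltf, granule genes of immature neutrophils, numbered 54 in control (18.4% of the class) and 10 in knockout (5.41%). They held 207 of 222 control and 36 of 39 knockout Ly6g UMIs, and 392 of 417 and 67 of 110 Ly6c2 UMIs. Within them the levels were 508 and 348 CPM for Ly6g and 961 and 648 CPM for Ly6c2, log2 ratios of -0.51 (-1.10 to -0.03) and -0.55 (-0.97 to -0.19). With subclusters weighted alike, the ratio was -0.57 for Ly6g and -0.34 for Ly6c2.

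Outside the Camp cells Ly6c2 was sparse, and the subcluster with enough UMIs for a ratio had more of it in knockout. In the subcluster with Cxcl2, Ccl4 and Acod1, with 140 control and 144 knockout cells, Ly6c2 stood at 60.3 and 141 CPM, a log2 ratio of 1.16 (0.34 to 2.18). Ly6a stood at 84.5 and 188 CPM and Ly6e at 265 and 480 CPM there. In the subcluster with Retnlg and Hdc, with 99 and 31 cells, Ly6c2 had 10 and 1 UMIs, Ly6g 14 and 3 and Ly6a 8 and 4. These UMIs were too few for ratios. Of 17 measured type I interferon genes in the whole class, 15 were at least 2-fold higher in knockout and none lower, with a median log2 ratio of 1.80 against -0.05 over all genes. The most abundant of them were Rsad2 at 551 and 3196 CPM, Isg15 at 481 and 1568 CPM, and Ifi27l2a at 210 and 760 CPM.

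**Figure D4:**
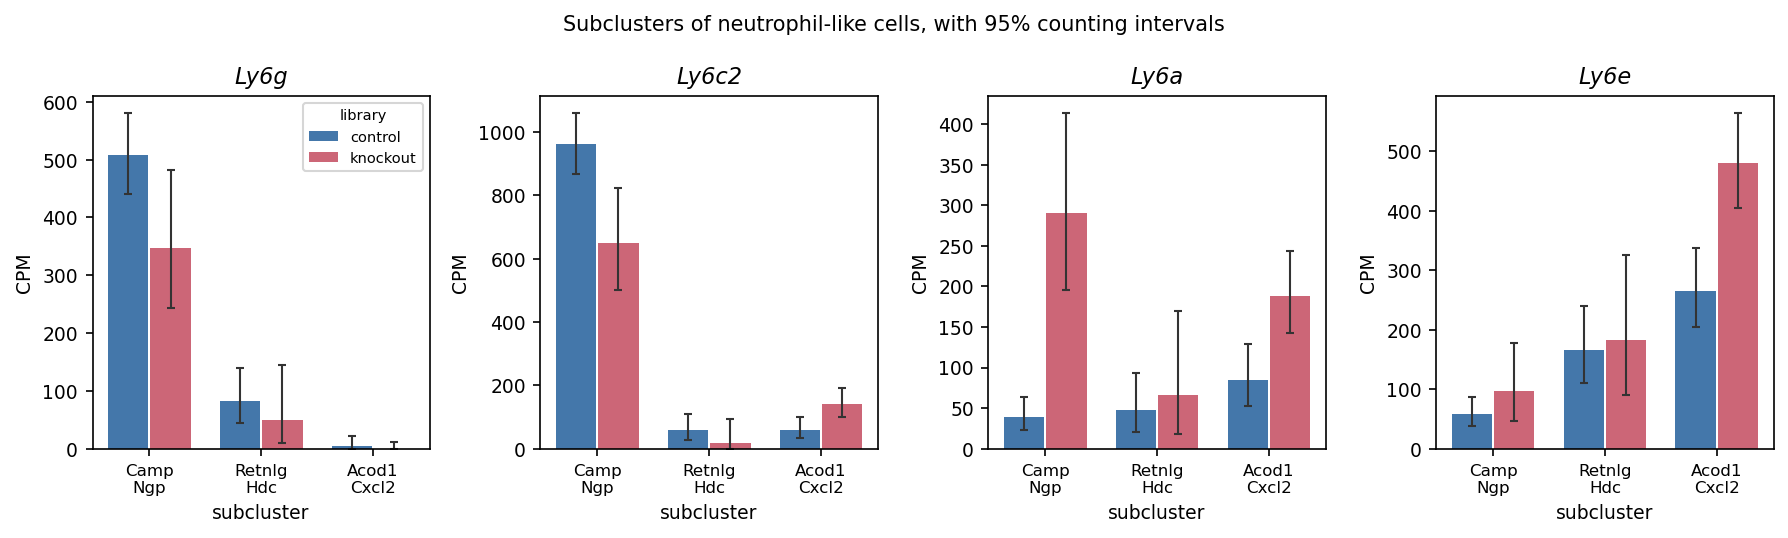
CPM of Ly6g, Ly6c2, Ly6a and Ly6e in the 3 neutrophil-like subclusters, named by 2 of their leading genes, with bars for each library and 95% counting intervals. Ly6g and most Ly6c2 lie in the Camp Ngp subcluster, which held 54 control and 10 knockout cells.

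Plasma-like cells had the highest Ly6c2 level of all named classes in both libraries. The level was 1381 CPM (1291 to 1476) in 53 control cells and 1591 CPM (1546 to 1636) in 200 knockout cells, and these cells held 45.4% and 59.2% of all Ly6c2 UMIs. In control 1 plasma-like cell held 162 of 873 Ly6c2 UMIs, and in knockout 1 held 676 of 4802. The monocyte-marker subcluster, a part of its class, stood at 926 CPM in control and 1530 CPM in knockout, the latter near the plasma-like level. Plasma-like cells in each library were clear of the next named class. By UMI sums that was NK-like cells in control, at 702 CPM (568 to 858), and monocyte/macrophage-like cells in knockout. With cells named one by one from their markers, control NK-like cells stood at 394 CPM and neutrophil-like cells at 387 CPM, so their order was not settled. NK-like cells stood at 296 CPM (261 to 335) in knockout, a log2 ratio of -1.25 (-1.59 to -0.89) from 38 control and 244 knockout cells. In control 1 NK-like cell held 38 of the 95 UMIs, and the share of cells with a UMI was 26.3% in control and 30.3% in knockout. In knockout the interval of NK-like cells overlapped that of neutrophil-like cells. A further 92 knockout and 8 control cells with monocyte and dendritic cell markers, left unnamed, had Ly6c2 at 849 CPM in knockout and 10 UMIs in control.

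T-like cells carried Ly6c2 at 142 CPM in control (115 to 174) and 114 CPM in knockout (106 to 123), a log2 ratio of -0.33 (-0.62 to 0.01). It lay in cells with a Cd8a or Cd8b1 UMI and no Cd4 UMI, at 206 and 193 CPM. Cells with a Cd4 UMI and neither Foxp3 nor Cd8 UMIs had 0 UMIs in 22 control cells and 24.0 CPM in 313 knockout cells. Ly6a, the Sca-1 gene, stood at 530 and 572 CPM in the class, a log2 ratio of 0.11 (-0.05 to 0.27), and stood at 866 CPM in 88 knockout cells with UMIs of Cd4 and of Foxp3, the regulatory T cell gene. Ly6e stood at 375 and 459 CPM, a log2 ratio of 0.29 (0.11 to 0.49). None of the 4 members with at least 20 UMIs was 2-fold different in T-like cells, where 4.37% of 11258 genes were higher and 5.8% lower (2.12% and 1.17% of genes with at least 100 UMIs). Of 18 type I interferon genes 6 were 2-fold higher and none lower in this class, with a median of 0.41.

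Ly6c1 marked endothelium and fibroblasts, and in these cells Ly6c2 was nearly absent. Endothelial-like cells had Ly6c1 at 1060 CPM (948 to 1182) in 44 control cells and 611 CPM (505 to 732) in 23 knockout cells. Fibroblast-like cells had 433 CPM (420 to 447) in 640 control cells and 510 CPM (493 to 526) in 733 knockout cells. Of the UMIs of the Ly6c1 and Ly6c2 pair, Ly6c2 made up 0 of 325 in control endothelial-like cells and 0.0234% in control fibroblast-like cells. In knockout cells it made up 97.4% of the pair in monocyte/macrophage-like, 99.9% in plasma-like and 93.0% in T-like cells. In control the shares were 89.2% in monocyte/macrophage-like, 100% in plasma-like and 95.9% in T-like cells. In all of these classes 1 gene of the pair held most of the UMIs.

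**Figure D5:**
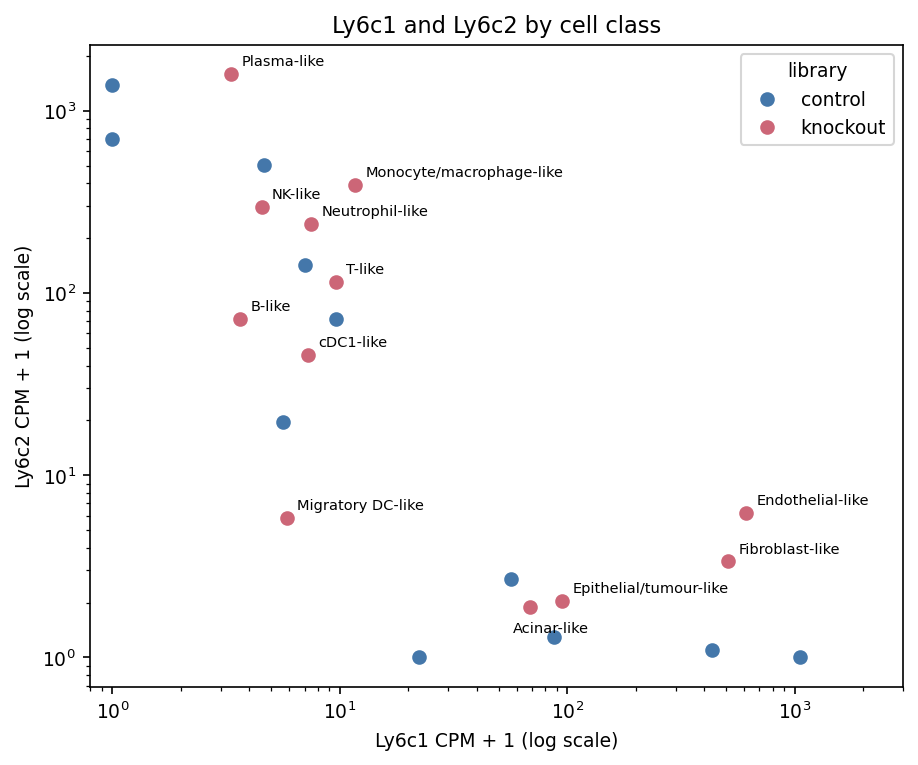
Ly6c1 against Ly6c2, both as CPM + 1 on log axes, with one point per cell class and library of at least 20 cells (knockout points are named). Most leukocyte classes lie at the upper left, with knockout migratory DC-like cells low on both axes at 4.84 CPM of each gene, and endothelial-like, fibroblast-like, acinar-like and tumour classes at the lower right.

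Fibroblast-like cells had the highest Ly6a level, at 1406 CPM in control (1383 to 1430) and 1648 CPM in knockout (1618 to 1678). The log2 ratio was 0.23 for Ly6a (0.19 to 0.26), 0.23 for Ly6c1 (0.17 to 0.30) and -0.23 for Ly6e (-0.30 to -0.15). None of these 3 members was 2-fold different, where 8.08% of 13477 genes were higher and 7.11% lower (5.36% and 4.52% of genes with at least 100 UMIs). The libraries held different fibroblast subclusters: one had 107 control cells and 1 knockout cell, with Ly6a at 2927 CPM and Ly6c1 at 1285 CPM in control. Weighting subclusters alike gave -0.08 for Ly6a and -0.05 for Ly6c1. That value covers the 10 subclusters with at least 10 cells in each library, so the one just described was not in it. Keratin UMIs were at 791 CPM in control and 202 CPM in knockout fibroblast-like cells, and at the tumour ratio they would account for 25.1% and 7.58% of Ly6e. Among 18 type I interferon genes 4 were 2-fold lower and none higher in knockout, with a median log2 ratio of -0.74 against 0.09 over all genes, and the most abundant were Ifi27l2a at 357 and 444 CPM, Bst2 at 321 and 206 CPM, and Isg15 at 177 and 51.4 CPM.

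Ly6a and Ly6c1 were found in the same fibroblast-like cells. After thinning, 149 of 635 control cells (23.5%) and 197 of 728 knockout cells (27.1%) held both, where the products of the single shares were 16.1% and 21.2%. Across the subclusters with at least 10 cells in each library, Ly6c1 ranged from 64.0 to 1075 CPM in control and from 57.5 to 1333 CPM in knockout. Endothelial-like cells had Ly6a at 985 and 626 CPM and Ly6e at 1028 and 736 CPM, with log2 ratios of -0.65 (-0.97 to -0.34) and -0.48 (-0.78 to -0.19).

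Epithelial/tumour-like cells held most UMIs of Ly6a, Ly6c1 and Ly6e because they made up most cells. Ly6a stood at 800 CPM in 9434 control cells and 971 CPM in 5686 knockout cells, a log2 ratio of 0.28 (0.27 to 0.29). Ly6e stood at 747 and 777 CPM and Ly6c1 at 86.1 and 93.7 CPM, log2 ratios of 0.06 (0.04 to 0.07) and 0.12 (0.08 to 0.16). Subclusters differed far more than libraries: Ly6a ranged from 183 to 1677 CPM across 12 control subclusters. In the interferon-gene subcluster with Ifit3, Cxcl10 and Rsad2 it stood at 1677 CPM in control and 1670 CPM in knockout. In another, with keratin genes, Slurp1 and Ccnd1 among its leading genes, it stood at 1573 and 1887 CPM. Keratin genes and Slurp1 also led subclusters with less Ly6a, at 472 and 581 CPM in one with Ffar4 and at 1023 and 1194 CPM in the Muc5ac and Rbp2 cells.

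Ly6c2 and Ly6i were close to absent from tumour cells. Ly6c2 had 44 UMIs in control and 101 in knockout, or 0.293 and 1.04 CPM, and Ly6i had 13 and 21 UMIs. Their log2 ratios of 1.80 (1.296 to 2.37) and 1.27 (0.25 to 2.43) were the 2 among 6 measured members above 2-fold, where 4.97% of 17395 genes were higher, and none was lower, where 2.64% were. Of genes with at least 100 UMIs, 2.07% were higher and 1.84% lower. Jchain, an antibody gene of plasma cells, stood at 4.06 and 5.29 CPM in the same cells. Ly6c2 over the whole library moved in the same direction, from 11.4 to 62.8 CPM, and its part in the tumour value was not tested. Fibroblast-like cells likewise had 1 and 17 Ly6c2 UMIs beside 22 and 54 Jchain UMIs.

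Ly6d was found in B-lineage cells and in few epithelial/tumour-like cells. B-like cells had it at 1228 CPM (1173 to 1285) in 446 knockout cells, with a UMI in 84.3% of them, while the control library held only 8 such cells and 6 UMIs. Plasma-like cells had 407 CPM (358 to 459) and 597 CPM (570 to 625), a log2 ratio of 0.55 (0.36 to 0.75). The intervals of the 2 classes in knockout were far apart. In epithelial/tumour-like cells it stood at 6.42 and 8.72 CPM, and most of its UMIs lay in 2 subclusters. One, with Tff2, Epcam and Clu, had 332 CPM in 41 control and 533 CPM in 51 knockout cells, with 24.0% of the control and 89.8% of the knockout UMIs. Whether the cells of this subcluster were tumour cells was not tested. The other, with Muc5ac and Rbp2, had 695 control UMIs (72.2% of them), in 40 of 1181 cells, and 42 knockout UMIs, in 4 of 321 cells. The class ratio of 0.44 (0.31 to 0.58) became -0.08 with subclusters weighted alike.

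In the remaining classes Ly6a and Ly6e were the members with the most UMIs. The cDC1-like cells, dendritic cells that present antigen to CD8 T cells, had Ly6a at 155 CPM in 54 control cells and 396 CPM in 116 knockout cells, a log2 ratio of 1.33 (0.98 to 1.74). With cells named one by one from their markers the levels were 244 and 348 CPM. Ly6e stood at 779 and 901 CPM in them. Acinar-like cells had Ly6a at 657 CPM in 50 control cells and 939 CPM in 418 knockout cells. They also carried keratins at 4761 and 6552 CPM, near the 5860 and 6024 CPM of tumour cells. At the tumour ratio these keratin UMIs would account for 98.9% and 112% of Ly6a. At Leiden resolution 2 only 3 control and 19 knockout cells were named acinar. Whether this class holds acinar cells or tumour cells with acinar transcripts was not tested. NK-like cells had Ly6a at 266 and 145 CPM, a log2 ratio of -0.91 (-1.43 to -0.30), but at 340 and 339 CPM when cells were named one by one from their markers. Pericyte/smooth muscle-like cells had Ly6a at 189 CPM and Ly6e at 241 CPM in 52 control cells, and too few knockout cells, 9, for a level. In 70 migratory DC-like knockout cells Ly6a was at 36.3 CPM, which keratin UMIs at the tumour ratio would cover in full.

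The order of classes by level differed between members, over classes with at least 20 cells. Ly6a was highest in fibroblast-like and then plasma-like cells in both libraries, with plasma-like and endothelial-like cells overlapping in control, and it was lowest in neutrophil-like cells in control and migratory DC-like cells in knockout. Ly6e was highest in endothelial-like cells in control and in B-like cells in knockout, and acinar-like and cDC1-like cells did not differ beyond counting error in either library. Ly6i was highest in monocyte/macrophage-like cells, overlapping neutrophil-like cells in control but not in knockout. The unnamed knockout cells had 44 Ly6i UMIs and the epithelial/tumour-like cells 13 and 21, and no other class had more than 6 in a library. Ly6g was found almost only in neutrophil-like cells: outside them, the named classes held 4 Ly6g UMIs in control and 7 in knockout, and the unnamed cells held 29 and 1.

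Genes whose levels ran most like each member's were listed over 20 sums of a class in a library, among 16095 genes. These correlations are descriptions over sums that share 2 libraries and differ in depth. Ly6g ran with Ms4a3 (r = 0.999), Cd177, Nlrp12 and Ltf, of which Ms4a3, Cd177 and Ltf are granulocyte genes. Ly6i ran with Sirpb1a (r = 0.96), Tlr8, 4930430E12Rik, Fcgr4 and Arl11, and Tlr8 and Fcgr4 are receptors of myeloid cells. Ly6d ran with 2010309G21Rik (r = 0.98), Gm43388, Cd79a, Vpreb3 and Iglc3, of which Cd79a and Iglc3 encode parts of the B cell receptor. Ly6c1 ran with Scara3 (r = 0.98), Ak1, Gja1, Epdr1 and Fam171a1. The match was looser for Ly6c2, with Atf6 (r = 0.91), Tmem154, Tex14, Azin1 and Arid3a, for Ly6a, with Alg5 (r = 0.84), Tbl2, Odr4, Ergic3 and Pdia6, and for Ly6e, with Nifk (r = 0.86), Brix1, Mia2, Rars and Bud23. Between the members themselves r lay between -0.69, for Ly6c1 and Ly6c2, and 0.55, for Ly6a and Ly6c1.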

How the data were processed

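Each library was made with the Chromium Next GEM Single Cell 3′ kit v3.1 from a pool of tumours. The deposited values are UMI counts per gene and barcode, made by the authors with Cell Ranger 8.0.0 per the file headers, while the submitters' processing notes name Cell Ranger 3.1.3 and mm10. Counts were not normalized by the authors, and how reads shared between genes were handled is not given in the sources used here. Barcodes under 500 genes or over 15% mitochondrial UMIs were dropped, and doublets were removed with Scrublet (expected rate 0.08), which marked 1.27% of control and 3.16% of knockout cells. Counts were scaled to 10000 per cell and clustered in scanpy 1.11.5 (2000 variable genes without the Ly6 and uPAR genes, 30 principal components, 15 neighbours, Leiden resolution 1). Clusters were named from 22 marker lists. The naming rule and the separate clustering of stromal cells were set after clusters were seen. UMIs were summed per class and library, with exact Poisson intervals for levels, Clopper-Pearson intervals for shares and exact conditional intervals for ratios. Log2 ratios used a pseudocount of 1 UMI and genes with at least 20 UMIs, in classes that held 100 or more cells in both libraries. Total depth was 173934025 UMIs in 13766 control barcodes and 137527647 UMIs in 12251 knockout barcodes. Intervals were tested on simulated Poisson counts, the model they assume, so spread between cells or mice was not covered. The members and lists were chosen with earlier results of these data known. All members were named, with the 5 genes most correlated with each (log2(CPM + 10), classes with at least 50 cells, genes with at least 100 UMIs) and the 3 genes of a list with the most UMIs, except that 1 gene is not reported here. Free tumour RNA was gauged from keratin UMIs at the ratio of each member to keratins in tumour cells. Sequences came from RefSeq promoters and GENCODE M21 transcripts, and protein sequences were not used here, so the planned protein identities were not computed. Alternatives covered the cell filter, doublets, clustering, naming, scaling, pseudocount, thinning and the weighting of subclusters.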

Additional observations from a re-analysis of the deposited data

Results flagged for a closer look

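The direction of the Ly6c2 difference was not the same in all cell classes. Its log2 ratio of knockout over control was 2.46 in monocyte/macrophage-like cells and 1.80 in epithelial/tumour-like cells, but -1.08 in neutrophil-like cells. The epithelial/tumour-like value came from 44 and 101 UMIs, or 0.293 and 1.04 CPM. The neutrophil-like value was -0.064 when each cell was thinned to 1000 UMIs and -0.34 with subclusters weighted alike. By neutrophil-like subcluster it was -0.55 in the Camp cells and 1.16 in the Acod1 cells, with only 10 and 1 UMIs in the Retnlg cells. With 1 library per genotype the difference between classes was not tested.

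Ly6e differed in direction between fibroblast-like cells and the other large classes. Its log2 ratio was -0.23 in fibroblast-like cells, against 1.31 in neutrophil-like, 0.81 in monocyte/macrophage-like, 0.29 in T-like and 0.0567 in epithelial/tumour-like cells. The fibroblast-like ratio was below 0 in all 12 alternatives, and weakest with doublets kept, at -0.0995. At the tumour ratio, keratin UMIs would account for 25.1% of Ly6e in control and 7.58% in knockout fibroblast-like cells. The part of free tumour RNA in the negative sign was not tested, and neither was the difference between classes.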

How the results depend on the processing

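Ly6c2 and Ly6i stayed higher in knockout monocyte/macrophage-like cells under all 14 alternatives run for each, but the size of the difference moved. For Ly6c2 (2.46) the log2 ratio was 2.77 at Leiden resolution 2, 2.84 when cells were named one by one from their markers, 0.81 with subclusters weighted alike and 1.26 without the monocyte-marker subcluster. For Ly6i (2.38) it was 3.28 after thinning, 1.73 with subclusters weighted alike and 1.58 without that subcluster. Within that subcluster the Ly6c2 ratio of 0.71 was 1.03 with the loose cell filter and 1.05 as a mean over cells. Among ratios whose interval excluded 0, the sign turned in 7 cases: Ly6d in epithelial/tumour-like cells weighted alike (-0.0813), Ly6i there after thinning (-0.27), Ly6a and Ly6c1 in fibroblast-like cells at Leiden resolution 0.5 (-0.39 and -0.59) and weighted alike (-0.0831 and -0.0492), and Ly6a in neutrophil-like cells named from their own markers (-0.19). Of ratios whose interval included 0, Ly6c1 in monocyte/macrophage-like cells kept its sign in 9 of 14 alternatives (lowest -0.84), Ly6c1 in T-like cells in 10 of 12 (lowest -0.54) and Ly6c2 in T-like cells in 10 of 12 (highest 0.38). Ly6c2 in neutrophil-like cells (-1.08) was -0.064 after thinning, -0.38 as a mean over cells and -0.34 with subclusters weighted alike. The causes were not tested. Weighting alike for members other than Ly6c2 and Ly6i, and leaving out the monocyte-marker subcluster, were chosen after seeing the data, as was adding the unnamed cluster with dendritic cell and monocyte markers to the class. A minimum of 100 UMIs cut the genes 2-fold higher and lower from 279 and 369 to 85 and 59 in monocyte/macrophage-like, 429 and 422 to 163 and 82 in neutrophil-like, 492 and 653 to 159 and 88 in T-like, 1089 and 958 to 554 and 467 in fibroblast-like, and 865 and 459 to 293 and 260 in epithelial/tumour-like cells, with fewer genes tested. No paired analysis was possible because each group had 1 library, and for the same reason no replicate could be left out.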

Other observations

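Other genes of the Ly6 and urokinase receptor family were also present. Of 38 listed, 33 were in the files and 13 had at least 100 UMIs. Slurp1, a secreted relative, stood at 389 CPM in control and 417 CPM in knockout epithelial/tumour-like cells. Plaur, the urokinase receptor, stood at 1077 and 1377 CPM in neutrophil-like cells and at 169 and 204 CPM in monocyte/macrophage-like cells. Cd59a and Cd59b, inhibitors of the complement membrane attack complex, stood at 37.6 and 84.8 CPM and at 7.71 and 22.2 CPM in fibroblast-like cells, while Slurp1 stood at 52.8 and 9.18 CPM there beside keratins at 791 and 202 CPM.

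Gpihbp1, which carries lipoprotein lipase to the capillary surface, stood at 460 CPM in 44 control and 120 CPM in 23 knockout endothelial-like cells, from 141 and 23 UMIs. Ly6k stood at 196 and 91.1 CPM in plasma-like cells. Psca had 6 UMIs in control and 232 UMIs in knockout epithelial/tumour-like cells, but these lay in 5 and 13 cells, and 1 knockout cell held 189 of them.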
